A study of Caenorhabditis elegans with 71 samples.

Results

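The fip and fipr genes of the nematode Caenorhabditis elegans encode short peptides, most of them predicted to be secreted. Members were taken by name alone, as every entry of the deposited table called fip- or fipr- followed by a number. There were 35, 6 named fip and 29 named fipr, among 19083 named genes with a value. Poly(A) RNA of whole larvae was sequenced along time courses that began when larvae, hatched without food and so arrested in the first larval stage, were moved to plates with OP50 bacteria. The lin-4(e912) mutant, which lacks a microRNA that times larval cell fates, was grown at 20C and sampled every 2 h from 0 to 48 h (25 libraries). Wild type N2 was grown at 25C and sampled every 1.5 h from 0 to 28.5 h (20 libraries). Wild type N2 was also grown at 20C in 2 populations, 1 sampled every 2 h from 0 to 38 h (20 libraries) and 1 from 38 to 48 h (6 libraries). Each time point is 1 library of pooled larvae and each series is 1 population, so a genotype or a temperature and its population cannot be told apart.

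The name fip stands for fungus-induced protein: the first of these genes were found as transcripts induced when a fungus infects the worm's epidermis, and fipr genes are their relatives by sequence. In that response they are studied beside the epidermal antimicrobial peptide genes of the nlp and cnc families. The role of most single members is not known. Larvae shed their cuticle at each molt, and many transcripts of the epidermis and pharynx rise and fall once per larval stage.

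Depth, recovered from the steps between low values, was 12.3 to 36.5 M reads over the 71 libraries. Values are RPKM as deposited (read counts divided by gene length and by depth), and changes are given on the log2(RPKM + 1) scale, which understates changes of low genes. Among 63 libraries with a library on each side, 1 stood apart: the libraries before and after lin-4 at 30 h correlated with each other across genes (r = 0.990) more than with it (0.959 and 0.970). The lin-4 label was checked by the microRNA's known targets. At 24 h lin-28 had 47.9 RPKM in lin-4 and 13.6 RPKM in wild type at 20C, and lin-14 had 102 RPKM in lin-4 and 31 RPKM in wild type at 20C. The members' tissue of expression was not measured, since whole larvae were used, and in whole larvae fewer cells of a type and less RNA per cell cannot be told apart.

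On the current annotation (WBcel235) all 35 members matched a gene of the same name, and all are short. Their longest coding sequences span 41 to 191 codons with a median of 73, against a median of 329 over 19985 protein-coding genes. Coding sequence lay in 2 exons for 23 members, in 1 exon for 10 and in 5 exons for fipr-22 and fipr-23. On chromosome V lie 14 members, with 8 on III, 5 each on I and IV, and 3 on X. Several are neighbours. On chromosome V, fipr-5, fipr-9, fipr-4, fipr-7, fipr-6 and fipr-8 follow each other with 0 to 3 other protein-coding genes between them, fipr-11 and fipr-10 have 1 between them, and so do fipr-1 and fipr-2. On chromosome I, fip-6 is next to fipr-26, and fipr-23, fipr-22 and fipr-24 lie together. On chromosome X, fip-5 is next to fipr-21, while fipr-3 lies apart.

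Since close relatives can share reads, near-equal rows were searched for. Only pairs with at least 10 libraries in which either reached 1 RPKM were judged, which left 517 pairs of members. Of these, 0 differed by under 10% in at least 90% of such libraries, also with a tolerance of 20%. Neither did any member judged and another gene. Pairs of scarce members were not judged, among them fip-7 and fipr-27 of chromosome IV. These had 3.13 and 3.10 RPKM at 46 h and 7.52 and 7.03 RPKM at 48 h in wild type at 20C, within 10% of each other. Of the judged pairs, fipr-6 and fipr-8 (r = 0.991) and fipr-7 and fipr-9 (r = 0.987) moved most alike over the 71 libraries. Yet they were within 10% of each other in 1 of 69 and 5 of 66 libraries. These correlations are descriptions over libraries that share the molting cycle. The number of reads behind a value was recovered from depth and length. Values were whole reads in every library for 8 members (fip-1, fip-2, fip-3, fip-6, fipr-13, fipr-14, fipr-26 and fipr-29). For 25 others some libraries gave fractions of a read, and for fipr-1 and fipr-2 no gene length was found that gave either. Fractions were common in other short genes too. Of 1856 of these with values in at least 60 libraries, 754 (40.6%) were whole in every library. Of 21 members with as many values, 5 were (23.8%). Values of fipr-4 and fipr-6 were whole in 0 of 71 libraries, of fipr-8 and fipr-9 in 1, of fipr-10 in 22, of fipr-3 in 61 and of fipr-21 in 69. The sources used here do not give how reads that fit several genes were counted, so values of the fipr-4 to fipr-9 run may hold shared reads, and their likeness is uncertain for that reason. The table also holds an unnamed entry for a second form of the fipr-2 gene, which the rule does not take.

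Levels differed widely. In some library 14 members passed 100 RPKM, and 16 had a median below 1 RPKM in every population. The most abundant was fipr-21, with 177 to 1087 RPKM over the lin-4 libraries (median 619), 29.9 to 984 RPKM at 25C (median 323) and 84.4 to 918 RPKM in wild type at 20C before 40 h (median 508). In these series its lowest library was 0 h. The steadiest of the abundant members was fip-2, at 68.1 to 185 RPKM in lin-4, 46.3 to 164 RPKM at 25C and 71.4 to 153 RPKM in wild type at 20C to 38 h.

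A set of 12 members rose and fell together once per larval stage: fipr-1 to fipr-11 and fip-5. They were low late in the first stage, peaked at 20 h in wild type at 20C, and peaked again at 30 or 32 h and, in the later population, at 42 h. The test fitted a cosine and a sine beside a smooth trend to 17 libraries of a series, and a gene was called oscillating at an adjusted p under 0.05 (limma, Benjamini-Hochberg over all tested genes) with a fitted peak-to-trough range of at least 1 log2 unit. In lin-4, at a period of 14 h, 15 of 19 members tested were called, against 13.5% of all genes tested. At 25C, at a period of 7.75 h, 13 of 18 were called, against 10.9% of all genes. In wild type at 20C, at a period of 11.25 h, 12 of 18 were called, against 13.7% of all genes. The median range of the members tested was 2.29 in lin-4, 3.24 at 25C and 3.33 in wild type at 20C, and the median over all genes tested was 0.32, 0.31 and 0.30 in these series. The members left out of each test had a mean below 1 RPKM in that series. The counts depend on the period and the window. Periods were scanned to 16 h in lin-4 and to 12 h in wild type. The lin-4 limit was raised because an earlier scan of these data to 12 h ended at its limit. With periods scanned to 12 h only, 2 members were called in lin-4. With the period 1 h shorter 0 were called at 25C and 4 in wild type at 20C, and with it 1 h longer 0 at 25C. With all time points in the fit 5 were called in lin-4, 0 at 25C and 4 in wild type at 20C. Leaving out single time points gave 3 to 13 calls at 25C, with 3 called without 13.5 h or without 15 h. The share of all genes called under these other settings was not counted, so the drops cannot be read as particular to the members.

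The 11 members fipr-1 to fipr-11 were called in all 3 series. The member with the largest fitted range in wild type at 20C was fipr-3, at 4.55 ± 0.61 log2 (SE; limma adjusted p = 0.00072). Over the 20 libraries it had 1.02 RPKM at the lowest (12 h), a median of 23 and 245 RPKM at the highest (20 h). It had 188, 46.8, 6.93 and 108 RPKM at 18, 22, 26 and 30 h. The first burst thus followed the lowest libraries of the series and ended before the second began.

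The 5 members next in range had their first peak in the same library. fipr-7 ranged by 4.39 ± 0.65 log2, with a low of 0.599 RPKM (12 h), a first peak of 148 RPKM (20 h), 4.15 RPKM between bursts (26 h) and a second peak of 94.4 RPKM (32 h). fipr-6 ranged by 4.29 ± 0.67 log2, with 1.24, 180, 5.42 and 92.5 RPKM at 12, 20, 26 and 30 h. fipr-9 ranged by 4.14 ± 0.55 log2 with 0.781, 112 and 3.33 RPKM at 14, 20 and 26 h. All 3 were lowest at 12 or 14 h and low again at 26 h. fipr-4, with a range of 4.12 ± 0.60 log2, was the highest of all 12 in that burst, at 286 RPKM. fipr-10, with a range of 3.83 ± 0.33 log2, had 51.0 RPKM at 20 h and 63.9 RPKM at 32 h. It and fipr-11 were the 2 fipr members that were higher in the second burst than in the first, in lin-4, at 25C and in wild type at 20C alike, while fipr-1 to fipr-9 were lower in the second burst in each series.

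**Figure D1:**
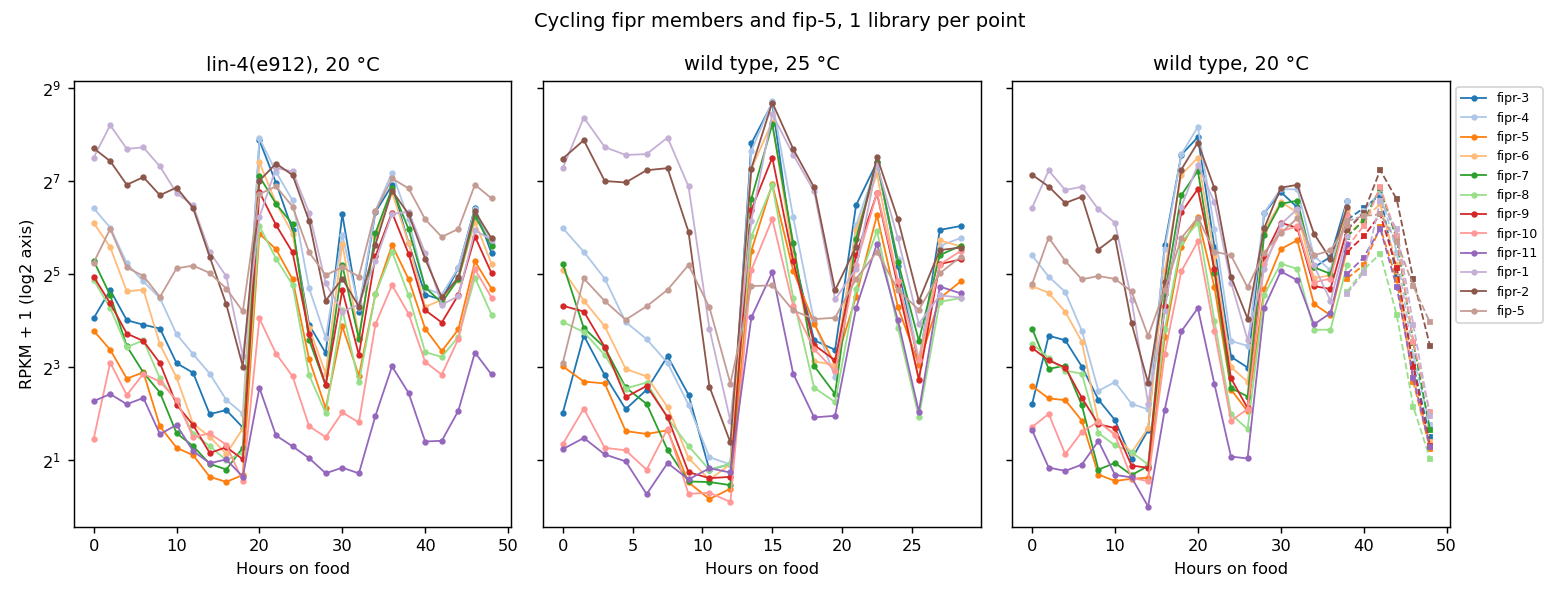
RPKM + 1 on a log2 axis against hours on food for the 12 cycling members, in lin-4 at 20C (left), wild type at 25C (middle) and wild type at 20C (right), where dashed lines with squares are the population sampled from 38 h. Bursts of most members coincide at 20, 36 and 46 h in lin-4, at 15 and 22.5 h at 25C and at 20, 30 to 32 and 42 h in wild type at 20C.

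The same bursts were seen in the other series. In lin-4, 9 of the 12 had their first peak at 20 h and 3 at 22 h, 11 had the second at 36 h and all 12 the third at 46 h. At 25C all 12 had their highest value of each burst at 15 h and at 22.5 h, although fip-5, not called there, had 35.6 and 26 RPKM at 9 and 15 h. These peaks are the highest libraries within a burst: fipr-1 in lin-4 was higher still at 2 h, at 293 RPKM. The onset was steep in lin-4, where fipr-7 had 1.40 RPKM at 18 h and 136 RPKM at 20 h, and fipr-3 had 2.25 RPKM at 18 h and 233 RPKM at 20 h. At 25C fipr-3 had 0.885, 223 and 407 RPKM at 12, 13.5 and 15 h. In wild type at 20C it had 2.13, 48.6 and 245 RPKM at 14, 16 and 20 h. The lin-4 library at 30 h broke the fall between the first and second bursts: fipr-3 had 8.83, 76.9 and 17.2 RPKM at 28, 30 and 32 h, and fipr-21 moved the other way with 869, 282 and 683 RPKM. Without that time point 15 members were still called in lin-4.

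Phase was tight among the cyclers. The called members peaked on average at 7.84 h of the 14 h cycle in lin-4, at 6.87 h of the 7.75 h cycle at 25C and at 7.71 h of the 11.25 h cycle in wild type at 20C, with concentrations of 0.895, 0.909 and 0.984 on a scale where 1 means the same time for all. The molting gene mlt-10 was the reference. At 25C it was not itself called (limma adjusted p = 0.061), and its peak time carried a standard error of 0.36 h, so phases there are less certain. fipr-3 to fipr-11 peaked 39 to 41.1% of a cycle after it in lin-4, 38.0 to 40.6% at 25C and 42.4 to 45.0% in wild type at 20C. fipr-1 and fipr-2 came later, at 51.1 and 49.5% of a cycle in lin-4, 51.8 and 48.2% at 25C and 51.2 and 48.7% in wild type at 20C. The peak times of fipr-1 and fipr-2 carried standard errors of 0.27 to 0.36 h, and their lag was not tested as a difference.

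Members outside the group of 12 that were called were called in 1 series each. Others had a limma adjusted p under 0.05 but a range under 1 log2. fip-2 did so in lin-4, at 25C and in wild type at 20C (0.48, 0.70 and 0.54 log2), and fip-1 in lin-4 (0.57). fipr-21 did so in wild type at 20C, with a range of 0.92 log2 and a peak 67.1% of a cycle after mlt-10. At 25C fipr-21 ranged by 1.68 ± 0.39 log2 and peaked 63.4% of a cycle after mlt-10, and fipr-13 ranged by 1.09 ± 0.20 log2 at a level no higher than 2.56 RPKM. In lin-4 fip-6 ranged by 2.20 ± 0.46 log2, fipr-22 by 1.49 ± 0.33 and fipr-23 by 1.18 ± 0.25. The peak of fip-6 lay 13.4% of a cycle after mlt-10 in lin-4, far from the 38.3 to 51.1% of the other members called there. Its fitted peak was at 11.7% at 25C and 11.2% in wild type at 20C, where its ranges of 1.75 ± 0.67 and 1.13 ± 0.46 log2 did not pass the test (limma adjusted p = 0.14 and 0.16). Over the lin-4 libraries to 38 h fip-6 had 2.18, 55.2, 6.45 and 78.1 RPKM at 8, 20, 24 and 30 h. The 30 h library is the 1 that stood apart from its neighbours in time, so that last value is less certain.

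**Figure D2:**
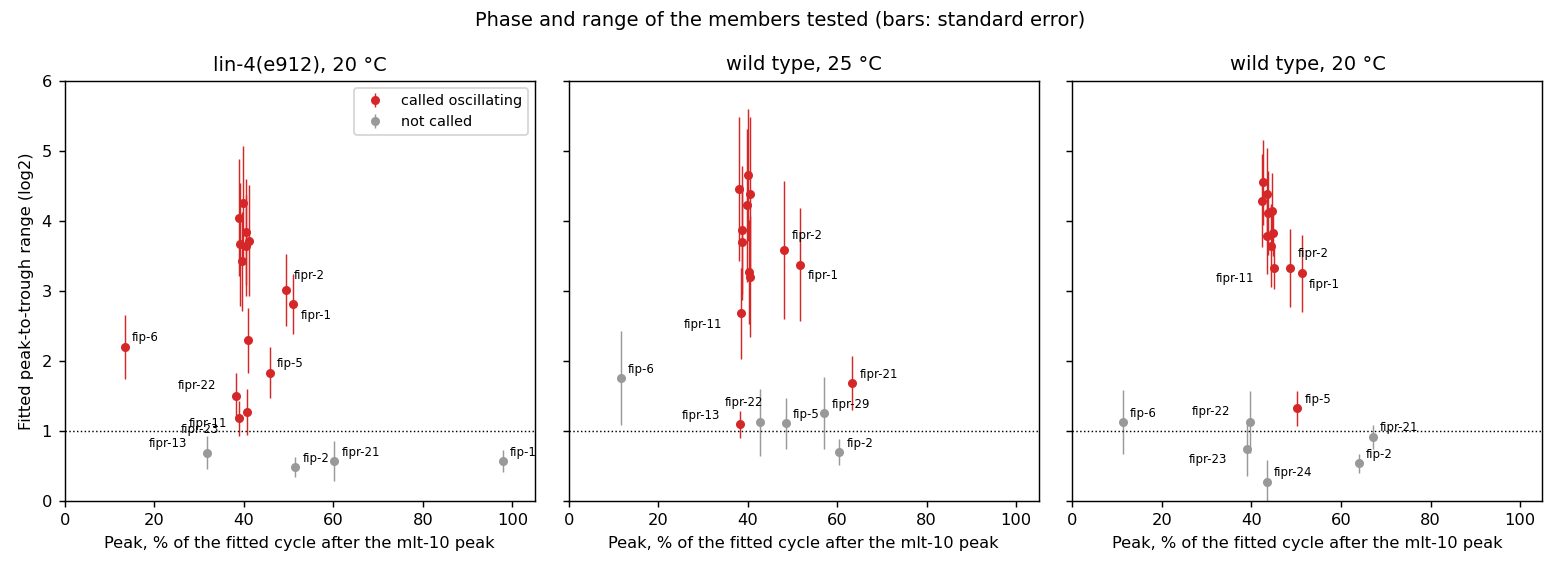
Fitted peak-to-trough range (log2, bars are standard errors) against the time of the fitted peak, as percent of a cycle after mlt-10, for each member tested in lin-4, in wild type at 25C and in wild type at 20C. Red points were called oscillating; most sit between 38 and 52% of a cycle, with fip-6 at 11 to 14%.

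Lists of other genes of the molting cycle and of the epidermal response put these phases in context. They were chosen with earlier results of these data known, and no list was tested as a set. In wild type at 20C, 16 of 19 molting factors tested, 6 of 6 furrow collagens, 9 of 9 pharyngeal cuticle genes and 8 of 16 epidermal antimicrobial peptides oscillated, against 13.7% of all genes. Their mean peaks lay at 1.49, 0.822, 5.88 and 8.30 h of the cycle, and the 12 fip and fipr members at 7.71 h. The concentrations of these peaks were 0.590, 0.999, 0.902 and 0.763, and 0.984 for the members. Peaks of molting factors and antimicrobial peptides were thus more spread, and their means describe single genes less well. Among the antimicrobial peptides nlp-26 ranged by 2.87 ± 0.73 log2 and cnc-3 by 2.65 ± 0.39, where the ranges of fipr-1 to fipr-11 were 3.25 to 4.55 and that of fip-5 was 1.32. Of 18 genes of the epidermal immune signalling pathway 1 oscillated, the kinase gene tpa-1 (1.14 ± 0.13 log2).

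In wild type at 20C a linear term, fitted beside the cycle from 6 to 38 h, was positive for most cyclers. It was called higher for 11 of 18 members tested (all genes 9.45%) and lower for 3 (all genes 16.4%). The largest fitted changes were those of fipr-7 (6.24 ± 0.98 log2), fipr-10 (5.87 ± 0.51), fipr-11 (5.45 ± 0.47) and fipr-5 (5.44 ± 0.86). That of fipr-3 was 5.29 ± 0.98, of fipr-9 5.22 ± 0.83, of fipr-6 5.0 ± 0.94 and of fipr-4 4.54 ± 0.91. For fipr-3 to fipr-9 these are not rises in burst height, since their second burst was lower than the first. In fipr-10 and fipr-11 the second burst was higher, by 0.32 and 0.79 log2, less than the fitted changes. For fipr-7 the libraries at the ends of the window had 3.52 RPKM (6 h) and 75.7 RPKM (38 h), a smaller change than the fitted one. The 3 that fell were fipr-22 (-2.15 ± 0.49 log2), fipr-23 (-1.51 ± 0.42) and fipr-24 (-1.41 ± 0.49). fipr-1, which was already high early, had a fitted change of 0.66 ± 0.60 log2 that did not pass the test (limma adjusted p = 0.37).

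In fed larvae more members were below their arrested level than above it. Larvae on food for 6 h (20C) or 4.5 h (25C) were set against arrested larvae of the same population (0 h), in lin-4 at 20C, wild type at 25C and wild type at 20C, with population as a block. Of 21 members tested, 1 was higher in fed larvae (8.86% of all genes) and 11 were lower (10.1% of all genes). Without the population block 5 were called. Food and hours of development cannot be told apart here, since all later libraries were fed. The median member stood at -1.01 log2 against -0.15 over all genes. A rescaling that sets the median gene to 0.00 left 9 of the 12 called: fip-2 (-0.87 log2), fipr-5 (-0.87) and fipr-8 (-0.97) then fell short of 1 log2. The starvation markers moved as the labels say, with a summed level of 9.36 to 207 RPKM over 4 markers in the fed libraries and 2054 to 3818 RPKM at 0 h.

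The member that rose was fipr-21. It had 304 RPKM in lin-4, 196 RPKM at 25C and 304 RPKM in wild type at 20C after feeding, and 177, 29.9 and 84.4 RPKM in the same populations at 0 h. The fed libraries were above all 3 arrested ones, and the change was 1.76 ± 0.36 log2 (limma adjusted p = 0.015).

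Of those that fell, 6 were the neighbouring fipr-4 to fipr-9. fipr-7 had 6.36 RPKM in fed lin-4, 4.90 RPKM in fed wild type at 25C and 3.52 RPKM in fed wild type at 20C, against 38.0, 36.0 and 13.2 RPKM at 0 h. Fed and arrested libraries did not overlap, and the change was -2.23 ± 0.23 log2 (limma adjusted p = 0.003). fipr-4 fell by 1.74 log2, fipr-6 by 1.59, fipr-9 by 1.47, fipr-8 by 1.13 and fipr-5 by 1.01. In lin-4 the level of fipr-4 kept falling until the burst, with 84.3 RPKM at 0 h, 27.6 at 6 h, 8.69 at 12 h and 2.99 at 18 h. Their cyclic partners fipr-3, fipr-10 and fipr-11 had 1.35 to 15.5 RPKM at 0 h and did not pass this test (0.25 ± 0.22, 0.39 ± 0.34 and -0.31 ± 0.20 log2).

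The others that fell were fip-2 (-1.04 ± 0.14 log2) and the 4 fipr genes of chromosome I. fipr-26 had 0 RPKM in fed lin-4, 0 RPKM in fed wild type at 25C and 5.54 RPKM in fed wild type at 20C, against 9.66, 2.18 and 9.84 RPKM at 0 h, a change of -1.94 ± 0.49 log2 (limma adjusted p = 0.029). fipr-24 changed by -1.74 ± 0.49 log2, with 1.12, 0.356 and 7.52 RPKM in these fed libraries and 19.2, 1.09 and 20.8 RPKM in the arrested ones. Each population was lower when fed, but fed and arrested libraries overlapped between populations for 7 of the 11 members that fell. For fipr-22, fipr-23, fipr-24 and fipr-26 fed wild type at 20C was above arrested wild type at 25C, and for fipr-5, fipr-8 and fipr-9 fed lin-4 was above arrested wild type at 20C. fipr-22 changed by -1.51 ± 0.32 and fipr-23 by -1.47 ± 0.21 log2. Without the lin-4 population 7 members were called, and fipr-5, fipr-8, fipr-22, fipr-24 and fipr-26 were not among them.

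**Figure D3:**
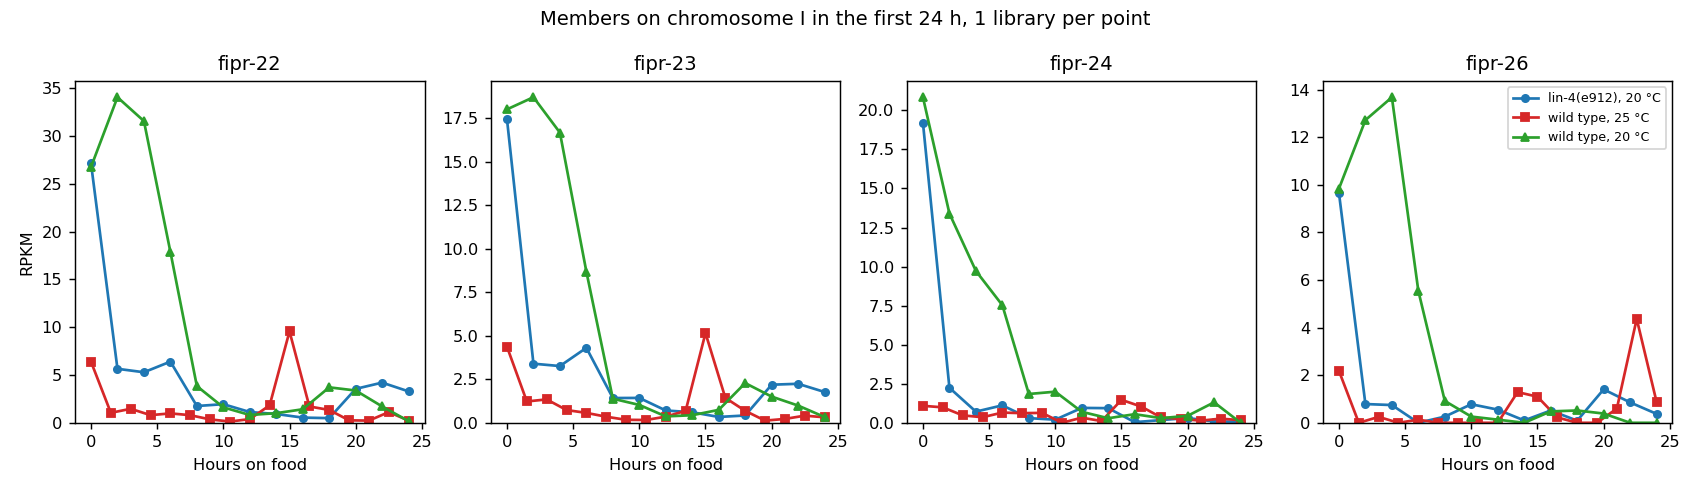
RPKM against hours on food in the first 24 h for fipr-22, fipr-23, fipr-24 and fipr-26, with 1 line each for lin-4 at 20C, wild type at 25C and wild type at 20C. In wild type at 20C the 4 members stay near their 0 h level until 4 h or fall slowly, while in lin-4 they are low by 2 h; at 25C they begin lower.

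The first fed sample (2 h at 20C, 1.5 h at 25C) gave another picture. Against 0 h, 4 of 21 members were higher (7.38% of all genes) and 1 was lower (6.97% of all genes). fipr-21 was already higher by 1.84 ± 0.33 log2. fip-1 was higher by 1.68 ± 0.32 log2, with 5.02 RPKM in lin-4, 2.12 RPKM at 25C and 8.11 RPKM in wild type at 20C, against 1.09, 0.621 and 0.549 RPKM at 0 h. fip-1 passed the filter of a mean of 1 RPKM only through these 3 fed libraries. That they lay above all 3 arrested ones is therefore no further support. fipr-3 was higher by 1.24 ± 0.25 log2 and fip-5 by 1.18 ± 0.25 log2, and fip-2 was lower by 1.02 ± 0.15 log2 (limma adjusted p = 0.012). Without the wild-type population at 20C 11 members were called, without that at 25C 0 and without lin-4 2.

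The 3 populations differed in how soon the chromosome I members fell. fipr-22 had 5.65 RPKM in lin-4 at 2 h, 1.04 RPKM in wild type at 25C at 1.5 h and 34.0 RPKM in wild type at 20C at 2 h, against 27.1, 6.39 and 26.7 RPKM at 0 h. It was still at 31.6 RPKM in wild type at 20C at 4 h and fell to 3.84 RPKM by 8 h. fipr-23 and fipr-26 followed the same course, and all 4 missed the threshold in the first fed sample. The starvation marker sum at that time was 56.9 RPKM in lin-4, 14.7 RPKM at 25C and 133 RPKM in wild type at 20C, and its part in the difference was not tested. fip-6, the neighbour of fipr-26, had 27.1 RPKM in wild type at 20C at 2 h, against 3.12 RPKM at 0 h. It showed no such burst in lin-4 (9.56 RPKM at 2 h, 9.78 RPKM at 0 h) or at 25C (1.45 RPKM at 1.5 h, 2.61 RPKM at 0 h).

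**Figure D4:**
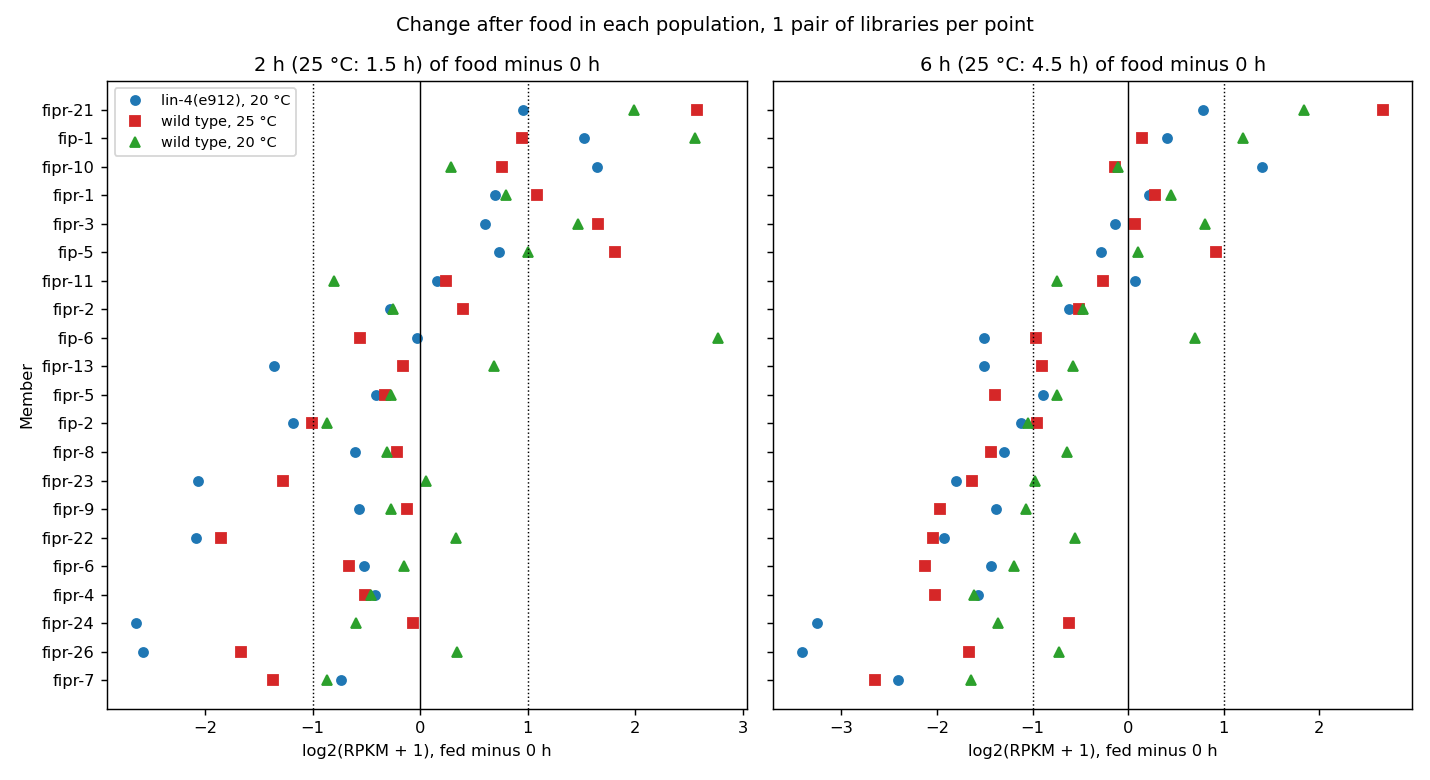
Change in log2(RPKM + 1) after food for each member tested, in the first fed sample (left) and at 6 h, or 4.5 h at 25C (right), with 1 point per population. fipr-21 lies right of 0 in all 3 populations in both panels, and fipr-4 to fipr-9 lie left of 0 in the right panel.

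Of the other lists, 2 epidermal antimicrobial peptides were higher and 6 lower of 18 tested at 6 h or 4.5 h, cnc-3 by 2.34 ± 0.17 log2 and cnc-11 by -3.19 ± 0.56 log2. Of 16 molting factors 2 were higher, nhr-23 (1.55 ± 0.18 log2), a nuclear receptor gene of the molting cycle, and acn-1 (1.13 ± 0.23). None of 6 furrow collagens passed in either direction, 1 of 5 pharyngeal cuticle genes was lower (abu-8, -1.02 ± 0.28 log2) and 1 of 18 immune pathway genes was lower (sma-6, -1.48 ± 0.16 log2). In the first fed sample 3 of 19 antimicrobial peptides were higher, the largest nlp-26 at 2.95 ± 0.43 log2.

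Bursts of most cyclers differed little in height between lin-4 and wild type at 20C. From fipr-1 to fipr-9 the log2 ratio of lin-4 to wild type ran from -0.45 (fipr-2) to -0.06 (fipr-9) in the first burst and from -0.13 (fipr-2) to 0.36 (fipr-4) in the second, with no test. fip-5 was higher in lin-4, at 117 RPKM against 73.1 RPKM in wild type in the first burst and 132 RPKM against 72.3 RPKM in the second. In the first burst the peak of fipr-3 was 233 RPKM in lin-4 and 245 RPKM in wild type at 20C, that of fipr-6 was 168 RPKM in lin-4 and 180 RPKM in wild type, and that of fipr-9 was 107 RPKM in lin-4 and 112 RPKM in wild type. fipr-11 differed. It peaked at 4.87 RPKM in lin-4 and 18.2 RPKM in wild type at 20C in the first burst, and at 7.07 RPKM in lin-4 and 32.2 RPKM in wild type in the second. Its fitted range was 1.27 ± 0.33 log2 in lin-4 and 3.33 ± 0.30 log2 in wild type, a difference of -2.06 ± 0.44 log2 (adjusted p = 0.0023, normal approximation, adjusted over the 2052 genes oscillating in either series). It was the 1 member called lower in range of 15 tested (0.244% of genes), and 0 were called higher (0.828% of genes). Its neighbour fipr-10 peaked at 15.5 RPKM in lin-4 and 51.0 RPKM in wild type, with a difference in range of -1.54 ± 0.57 log2 that missed the threshold (adjusted p = 0.21). With a straight trend in place of the smooth one the difference of fipr-11 was -1.43 log2 and no longer passed. The log2(RPKM + 1) scale understates changes at the low level of fipr-11 in lin-4, and the part of this in the difference was not tested.

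On average over 17 pairs of equal time from 6 to 38 h, fipr-11 was lower in lin-4 by 1.23 ± 0.43 log2 (limma adjusted p = 0.034, time as a block). It was 1 of 18 members tested (0.77% of all genes lower), and 0 were higher (0.373% of all genes). Over these libraries fipr-11 had 0.560 RPKM at the lowest, 1.45 at the median and 7.07 at the highest in lin-4, and 0 RPKM at the lowest, 5.18 at the median and 48.8 at the highest in wild type at 20C. Equal hours were not equal points of the cycle, with fitted periods of 14 h in lin-4 and 11.25 h in wild type. The part of molting phase in the fipr-11 difference was not tested. The call does not hold without any 1 of 7 time points, the 30 h one among them (-1.04 log2 without it), nor without the block. fipr-10 stood at -1.07 ± 0.46 log2 (limma adjusted p = 0.080). The same comparison called 4 of 9 pharyngeal cuticle genes lower, such as abu-1 (-1.63 ± 0.39 log2), and 1 of 19 molting factors, nas-36 (-1.02 ± 0.34).

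In the late window, from 38 to 48 h, 3 of 18 members tested were higher in lin-4 (1.19% of all genes) and 0 lower (2.65% of all genes), by limma with time as a block. fip-6 had 28.8, 78.4, 139, 147, 114 and 84.8 RPKM in lin-4 from 38 to 48 h, and 7.58, 8.22, 3.43, 4.90, 40.8 and 67.4 RPKM in wild type at 20C. lin-4 was higher at every time, least so at 48 h, and the mean difference was 2.72 ± 0.67 log2 (limma adjusted p = 0.032). The series stood at different points of the molting cycle in these hours: mlt-10 had 81.8, 180, 215, 160, 45.9 and 93.4 RPKM in lin-4, and 51.6, 48.8, 11.7, 37.3, 259 and 211 RPKM in wild type at 20C. Deviations of libraries of equal time had a median correlation of -0.256, and the part of molting phase in the difference was not tested. fipr-26, which lies next to it, had 0.660, 0.723, 2.34, 2.12, 4.01 and 2.05 RPKM in lin-4 and at most 0.180 RPKM in wild type, a difference of 1.36 ± 0.25 log2 (limma adjusted p = 0.016). fipr-22 had 1.88 to 6.43 RPKM in lin-4 and 0.138 to 1.06 RPKM in wild type, a difference of 1.42 ± 0.26 log2 (limma adjusted p = 0.016). fipr-22 and fipr-26 had wild-type medians of 0.463 and 0.105 RPKM, so they passed the filter of a mean of 1 RPKM only through lin-4. That their groups did not overlap is therefore no further support. Without the 44 h pair 0 were called, and without 42 h or 46 h 1. The summed sperm markers ran from 0.415 to 7.88 RPKM in lin-4 and from 0.926 to 79.7 RPKM in wild type over these hours, and their part was not tested.

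A further 7 members appeared at the end of the wild-type series alone, as a description with no test of their own: fip-7, fipr-27 and fipr-28, which are neighbours on chromosome IV, and fipr-17, fipr-18, fipr-19 and fipr-20 of chromosome III. They were picked from the 8 members whose highest library was wild type at 20C at 48 h. The other, fipr-16, had 1.31 RPKM there and is left to the scarce members. The share of all genes with such a course was not counted. fipr-17 had 0.147 RPKM in lin-4 at 48 h, and 0.744, 4.88 and 10.5 RPKM in wild type at 20C at 44, 46 and 48 h. fip-7 had 0 RPKM in lin-4 at 48 h, and 0.450, 3.13 and 7.52 RPKM in wild type at these times. The other 5 reached 3.61 to 7.03 RPKM in wild type at 48 h. Values above 0 were whole reads in 1 of 18 libraries for fip-7, 4 of 19 for fipr-27 and 3 of 9 for fipr-28. They were whole in 0 of 35 for fipr-18, 1 of 38 for fipr-19 and 7 of 36 for fipr-20, but in 32 of 34 for fipr-17. At their highest the 7 had 20.25 to 95 reads. Neighbours among them may hold shared reads, so 7 separate rises are not certain. Outside the wild-type libraries at 46 and 48 h none of the 7 passed 0.744 RPKM in any of the other 69 libraries. Lower values there follow in part from how the 7 were picked. The sperm markers climbed over the same libraries: msp-3 had 3.06 RPKM in lin-4 at 48 h, and 6.54, 14.6 and 34.6 RPKM in wild type at 44, 46 and 48 h, and all 3 listed sperm markers were detected. Over the same hours the 3 germline markers summed to 176 to 408 RPKM in lin-4 and 209 to 402 RPKM in wild type. Whether the 7 members come from the sperm-forming germline was not tested. Over these hours in wild type fipr-3 fell to 1.80 RPKM at 48 h after 103 RPKM at 42 h.

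**Figure D5:**
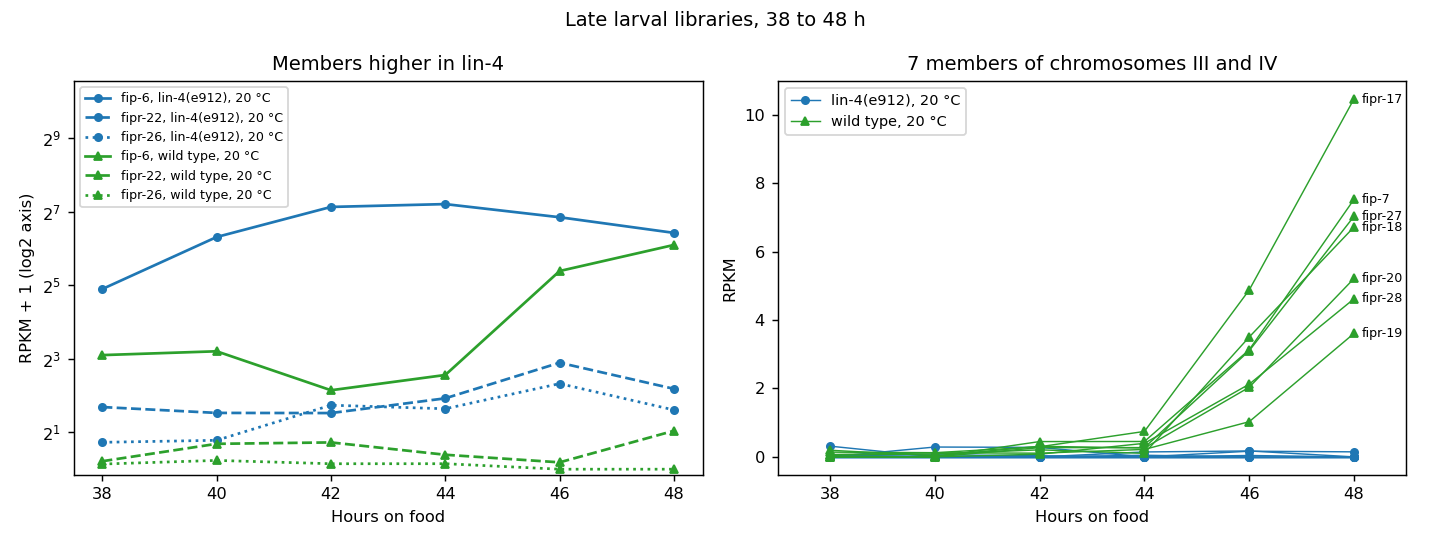
Late larval libraries from 38 to 48 h, lin-4 in blue circles and wild type at 20C in green triangles. Left, RPKM + 1 on a log2 axis for fip-6, fipr-22 and fipr-26, higher in lin-4 at every time. Right, RPKM of the 7 late members of chromosomes III and IV, which reach 3.61 to 10.5 RPKM in wild type at 48 h and reach at most 0.314 RPKM in lin-4.

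Temperature left no member past the threshold. With 25C time multiplied by 1.3, the factor at which its libraries best matched those at 20C, 16 libraries at 25C were compared with wild type at 20C. Of 17 members tested 0 were called higher (1.18% of all genes) and 0 lower (0.513% of all genes) by limma, while 3 had an unadjusted p under 0.05. The largest difference among these was that of fip-5, -0.74 ± 0.18 log2 (limma adjusted p = 0.0016), which is under the 1 log2 required. fip-5 had 5.25 to 43.6 RPKM over all libraries at 25C and 11.7 to 73.1 RPKM over those of wild type at 20C to 38 h. For fipr-4, the difference was -0.41 ± 0.35 log2 and for fipr-8 -0.02 ± 0.30, which does not show that the levels were equal.

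The members not yet described were scarce. fipr-13 had 7.55 RPKM at its highest (lin-4 at 0 h), fipr-29 had 7.93 RPKM at its highest (25C at 9 h), and fip-3, fipr-12, fipr-14, fipr-15, fipr-16 and fipr-25 never reached 3 RPKM. At this depth, cycles or responses of the last 6 were not detectable. At 38 h both wild-type populations at 20C were sampled, which gives the only check between populations of 1 condition. Of the 15 members at 1 RPKM or more there, the later population minus the earlier had a median difference of -0.58 log2, with fipr-1 the farthest at -1.23 (22.9 RPKM in the later and 55.1 RPKM in the earlier population). Over 12275 genes the median was 0.04 and the central 90% ran from -0.48 to 0.45 log2.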

How the data were processed

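The authors deposited RPKM values per gene in 1 table, and the unit is the one named by that table. The submitters' processing notes name BWA 0.5.9 as aligner. Nothing used here gives the genome build, annotation, strand or counting rule, so no coordinates are printed. Of 21777 entries, 2643 with RIT identifiers and 11 others without a name, together 1.58 to 3.03% of summed RPKM per library, were left out, as were 37 without a value and 3 repeats. Empty cells were taken as 0.

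Values entered limma 3.58.1 (R 4.3.3) as log2(RPKM + 1). Genes were kept where their mean over the libraries compared was 1 RPKM or more, with Benjamini-Hochberg adjustment over all of them. A call needed an adjusted p below 0.05 and 1 log2 unit or more of change (range differences with no minimum size). Oscillation used a cosine and a sine beside a natural spline with 3 degrees of freedom, at the period with the highest mean partial R2. Errors are standard errors over time points or population pairs, so p-values measure that spread, not replicate cultures of a condition. The script was tested on simulated data. Other steps ran in Python 3.11.15 (pandas 2.3.3, NumPy 2.4.6, Matplotlib 3.10.9).

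Pairs come from the population or the labelled time. Their deviations correlated across genes with a median r of 0.343 for fed against arrested larvae (3 of 3 pairs over 0.1), 0.506 for the first fed sample (3 of 3), 0.441 for lin-4 from 6 to 38 h (14 of 17) and -0.256 for lin-4 from 38 to 48 h (1 of 6). The members and lists were chosen with earlier results of these data known. Per-library values are given for the 6 oscillating members of largest range, for up to 8 members per other test and for members of another phase. Other choices of pseudocount, filter, window, period, trend and rescaling were tried, and each time point or population was left out in turn.

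Starvation markers were acs-2, gei-7, hsp-12.6 and sod-3. An entry named icl-1 carries the identifier of another gene and was left out.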

Additional observations from a re-analysis of the deposited data

Results flagged for a closer look

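The range of fipr-11 differed between genotypes when the difference itself was tested: it was -2.06 log2, lin-4 minus wild type at 20C. It no longer passed with a straight trend. From 6 to 38 h fipr-11 had at most 7.07 RPKM in lin-4, a level at which the log2(RPKM + 1) scale understates changes. fip-3 differed in sign with feeding between 2 populations, by -1.23 log2 in wild type at 25C (0.381 RPKM at 4.5 h, 2.24 RPKM at 0 h) and by 1.02 log2 in wild type at 20C (1.03 RPKM at 6 h, 0 RPKM at 0 h). Since fip-3 had at most 5 reads in any library, and each value rests on 1 pair of libraries, no response is readable from it, and the difference was not tested. None of the 21 members looked at in the 6 wild-type libraries from 38 to 48 h had a library that stood apart from the others. The rule (Dixon's Q) sets the gap beside the most extreme value against the full range and is made for replicates. These 6 libraries are successive times, so it cannot tell a faulty library from a rise or a cycle.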

How the results depend on the processing

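The oscillation counts depend on the period and on the early time points. The share of all genes called was counted under the main settings only. With all time points 4 members were called in wild type at 20C, 0 at 25C and 5 in lin-4. With the period 1 h shorter 4 were called in wild type at 20C and 0 at 25C, and with it 1 h longer 0 at 25C. With periods scanned to 12 h only, 2 were called in lin-4, while 14 were called from 6 to 48 h at the period of that window, an alternative chosen after seeing the data. The main lin-4 limit of 16 h was also set after a scan of these data. Leaving out each time point gave 12 to 14 in wild type at 20C, 14 to 15 in lin-4 and 3 to 13 at 25C, where 3 were called without 13.5 h or 15 h, 5 without 10.5 h, 6 without 9 h or 25.5 h, 7 without 19.5 h and 8 without 22.5 h. The count of range differences was 0 with a linear trend and 1 to 2 over left-out times, 2 without 20 h. Without the population block 5 members were called at 6 h or 4.5 h (7 to 12 over left-out populations) and 2 in the first fed sample (0 to 11). For lin-4 from 6 to 38 h the count of 1 fell to 0 with a pseudocount of 0.1, without the block and without 18, 20, 28, 30, 32, 34 or 38 h. From 38 to 48 h it was 1 with a filter at 5 RPKM and 0 to 3 over left-out pairs. The cause was not tested. No called member changed direction under any alternative run, and the counts of trends (11 to 15), temperature (0) and near-equal rows (0) stayed within 1.5 times. Depth limits the 6 members that never reached 3 RPKM.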
